A study of Drosophila melanogaster with 9 samples.

Results

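The genes described here are 168 of the 6534 genes in the files whose symbol is CG followed by digits alone, among 16837 genes in all. They were picked by measured level. The mean of the 3 Chd1[-/-] libraries had to be at least 5 TPM (the authors' length-corrected transcript level, scaled to the same total in each library) and at least 4 times the wild-type mean and the elav>Chd1 mean. The lowest Chd1[-/-] library also had to lie above the highest of the other 6. Being high in the Chd1[-/-] libraries is therefore the criterion and not a result, and it is given below without a test.

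RNA came from material labelled as heads of virgin Drosophila melanogaster females, aged 10 days, with 3 libraries for each of 3 genotypes. Wild type is titled Chd1[WT/WT]. The Chd1-deficient genotype is titled Chd1[-/-] and the series title calls it a deletion. The third, elav-Gal4>UAS-Chd1 (here elav>Chd1), drives a Chd1 transgene from the elav promoter, which is active in neurons. Its label also reads Chd1-rescued. The labels do not state whether those flies carry the deletion, and the series text lists Chd1-rescued apart from elavGal4>UAS-Chd1 and names no wild type. Nothing in the labels shows the replicate libraries to be independent collections of flies, and a p-value below therefore reflects library-to-library spread that could be technical.

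Chd1 encodes a chromodomain ATPase that spaces nucleosomes over transcribed genes and takes part in the deposition of the histone variant H3.3. A CG symbol is the computed-gene number given when the fly genome was annotated. A gene keeps it until someone names it for a phenotype, a homologue or a function, so genes still under a CG number are mostly uncharacterised. Many such genes in the fly are short and are transcribed in a single tissue, the testis above all, and others encode secreted peptides of immunity, gut or cuticle.

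Chd1 itself checked the labels. It stood at 18.2, 19.9 and 20.2 TPM in the Chd1[-/-] libraries, 103.8, 108.5 and 92.7 TPM in wild type and 63.7, 63.1 and 63.7 TPM in elav>Chd1, so transcript remained in the Chd1[-/-] libraries and the word deletion is used only as a label. The material also departed from its label of female heads. Ovary and eggshell genes summed to 46509.9 to 52610.6 TPM in wild type, 58196.3 to 60628.5 TPM in Chd1[-/-] and 57705.1 to 60606.9 TPM in elav>Chd1, against 106.1 to 124.6, 345.5 to 366.2 and 156.7 to 163.9 TPM for the 14 neuronal markers in the same order. The first sums include the yolk protein genes Yp1, Yp2 and Yp3. Their means were 6832.5, 3645.8 and 3803.8 TPM in wild type and 9603.1, 7237.0 and 9111.0 TPM in Chd1[-/-]. The higher sum in Chd1[-/-] was not shared by all genes of the list. Of its 26 genes, 13 were lower and 9 higher in Chd1[-/-] than in wild type, in a limma test described below. Of all 11094 genes in that test, 5101 were lower and 4758 higher. RNA of the male-specific dosage compensation gene roX1 stood at 26.3, 29.6 and 26.6 TPM in the Chd1[-/-] libraries, 2.31, 1.95 and 1.69 TPM in wild type and 2.03, 1.87 and 1.94 TPM in elav>Chd1. The 50 listed genes of the Y chromosome summed to 7.33 to 9.95 TPM in Chd1[-/-], 0.428 to 0.621 TPM in wild type and 0.133 to 0.208 TPM in elav>Chd1. A difference in dissected tissue or in sex between the groups cannot be told apart from one in genotype. The files hold no read counts, so sequencing depth is unknown. In bulk RNA of this kind, more cells of a type and more RNA per cell cannot be told apart.

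Together the 168 genes took a small share of each library and that share was alike within a genotype. Their TPM summed to 4747.4, 4601.5 and 4645.7 in the Chd1[-/-] libraries, which is 0.475%, 0.46% and 0.465% of the library. In wild type the sums were 502.4, 496.3 and 532.6 TPM, and in elav>Chd1 457.5, 457.8 and 445.2 TPM. The most abundant gene held 14.6% of the Chd1[-/-] sum and the 12 most abundant held 46.4%. Most of the genes were far lower. In Chd1[-/-], 78 had a mean of 5 to 10 TPM, 72 of 10 to 50, 12 of 50 to 100 and 6 above 100, with a median of 10.5 TPM. The median level over the genes was 0.98 TPM in wild type and 0.499 TPM in elav>Chd1.

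The 3 Chd1[-/-] libraries resembled each other. The coefficient of variation of a gene across them had a median of 6.78% and ranged from 0.245% for CG3124 to 36.8% for CG44388. The highest of the 3 was library 1 for 54 genes, library 2 for 59 and library 3 for 55. The ratio of the Chd1[-/-] mean to the wild-type mean had a median of 10.9974 and quartiles of 8.70 and 13.6. Against elav>Chd1 the median ratio was 27.6 with quartiles of 12.2 and 42.1, over the 163 genes that were above 0 there. Among all 11094 genes tested, 32.9% also had their lowest Chd1[-/-] library above the highest of the other 6. The authors' deposited tables, which by their title lines hold only genes past a fold threshold, list all 168 genes as higher in Chd1[-/-] in both comparisons, with a median log2 fold change of 3.55 (range 2.19 to 7.50) against wild type and 4.86 (range 2.13 to 10.7) against elav>Chd1. Those comparisons use the same libraries as the rule, share the Chd1[-/-] group and add no independent evidence.

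**Figure D1:**
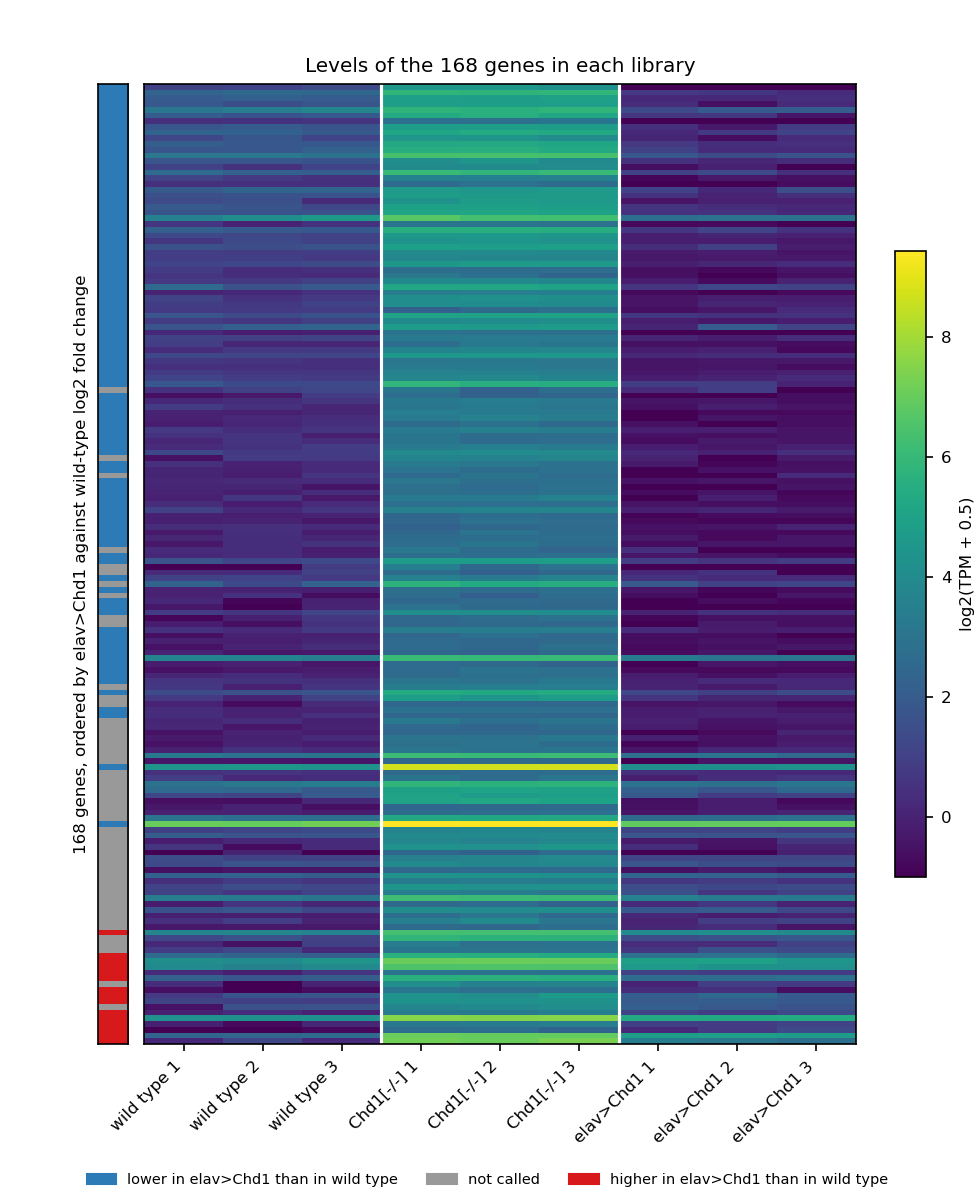
Each row is 1 of the 168 genes and each column 1 library, coloured by log2(TPM + 0.5); rows are ordered by the log2 fold change of elav>Chd1 against wild type, and the strip on the left shows the limma call in that comparison (blue lower, 100 genes; grey not called, 53; red higher, 15). The middle block, Chd1[-/-], is highest in each row by the criterion; the upper rows are darker in elav>Chd1 than in wild type and the bottom rows lighter.

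The most abundant of the genes is CG18067, which current annotation names Bbd (bombardier), a secreted protein that acts with the Bomanin peptides of the Toll immune response. It stood at 679.6, 666.2 and 690.4 TPM in the Chd1[-/-] libraries, 126.8, 126.0 and 143.9 TPM in wild type and 117.7, 121.2 and 124.6 TPM in elav>Chd1. The Chd1[-/-] mean was 5.13 times the higher of the other means. The other groups were near each other without overlap, elav>Chd1 being slightly lower (log2 fold change -0.12, SE 0.05, limma adjusted p = 0.041), a fall smaller than the median of all genes (-0.15). The unnamed gene CG8736 came next, at 426.8, 410.0 and 419.8 TPM in the Chd1[-/-] libraries, 20.4, 22.8 and 19.5 TPM in wild type and 16.7, 17.7 and 19.2 TPM in elav>Chd1. Its Chd1[-/-] mean was 20.1 times the higher of the other means, a wider gap than for Bbd, and elav>Chd1 was again slightly lower than wild type (log2 fold change -0.22, SE 0.06, limma adjusted p = 0.010). Of the remaining 10 most abundant genes, CG42807, CG11458, CG9686, CG12998, CG31775 and pkm (CG1561) were higher in elav>Chd1 than in wild type, CG42481 and CG17376 were lower, and CG34215 and CG4962 were not called, in a limma test described below.

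**Figure D2:**
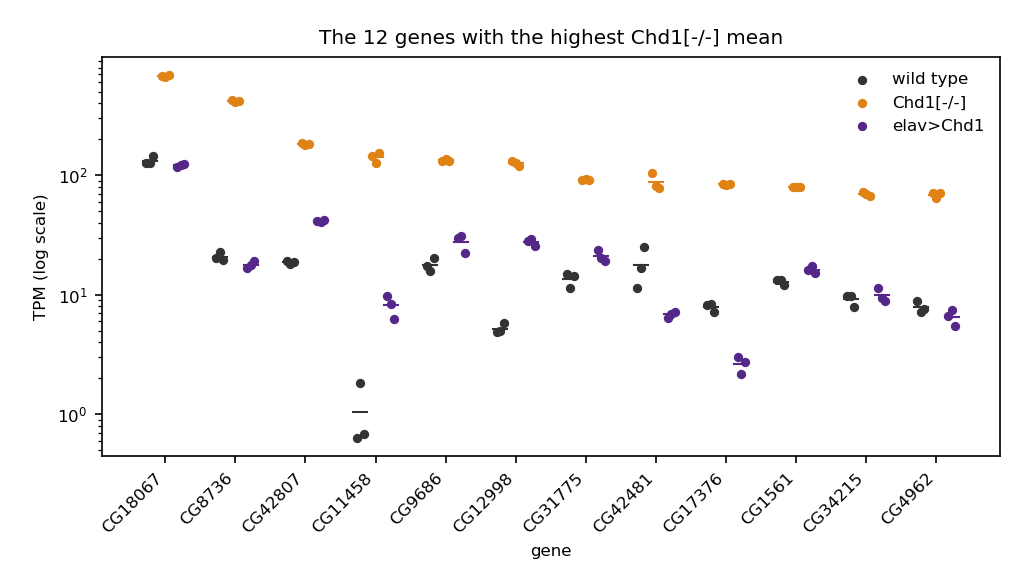
TPM on a log axis in each library (points, 3 per group) and the group mean (short line) for the 12 genes with the highest Chd1[-/-] mean. The Chd1[-/-] points lie above all others for every gene by the criterion, while the order of wild type and elav>Chd1 differs between genes, with CG11458 and CG12998 far higher in elav>Chd1 and CG17376 lower.

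CG5172 had the largest ratio of the 168 genes, with 32.1, 36.6 and 32.5 TPM in the Chd1[-/-] libraries, 0.18, 0.154 and 0.609 TPM in wild type and 0.163, 0.395 and 0.08 TPM in elav>Chd1, a ratio of 107.2 to the higher of the other means. CG13043 followed at 19.8, 18.9 and 22.3 TPM in the Chd1[-/-] libraries, 1.0027, 0.12 and 0.733 TPM in wild type and 0.797, 0.218 and 0.557 TPM in elav>Chd1, a ratio of 32.9. Of the 168 genes 96 reached a ratio of at least 10 and 12 of at least 20. CG30192, CG13044, CG13722, CG13245, CG12126, CG17298, CG31008 and CG11373 complete the 10 largest ratios, with Chd1[-/-] means from 5.05 TPM (CG30192) to 49.8 TPM (CG17298). At the edge of the criterion, CG17261, CG42782 and CG17472 were just inside the 4-fold bound with ratios of 4.15, 4.23 and 4.33, and CG31872, CG42855 and CG15657 just outside with 3.995, 3.99 and 3.96. CG14297, CG7164 and CG14974 were just inside the level bound at Chd1[-/-] means of 5.02, 5.02 and 5.03 TPM. CG32299, CG42529 and CG43133 missed it at 4.99, 4.98 and 4.97 TPM.

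For 10 of the 168 genes the RefSeq gene table (assembly Release 6 plus ISO1 MT) holds a current name in place of the CG number. Besides Bbd, a second relative of immune genes is Mtkl (CG43236), a metchnikowin-like gene named after the antifungal peptide metchnikowin. It stood at 26.1, 23.8 and 25.7 TPM in the Chd1[-/-] libraries, 2.74, 4.08 and 4.69 TPM in wild type and 0.568, 3.43 and 1.71 TPM in elav>Chd1. It was called lower in elav>Chd1 than in wild type (log2 fold change -1.02, SE 0.37, limma adjusted p = 0.028), although 1 of the elav>Chd1 libraries lay inside the wild-type range. For the list of 39 antimicrobial and immune-induced peptide genes, the summed level was 14756.7 to 15963.8 TPM in Chd1[-/-], 4318.2 to 4919.1 TPM in wild type and 4629.3 to 4676.1 TPM in elav>Chd1.

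COX6CL (CG31644) and COX7CL (CG44296) encode proteins like subunits 6C and 7C of cytochrome c oxidase, the last complex of the mitochondrial electron transport chain. COX6CL stood at 6.12, 7.89 and 5.85 TPM in the Chd1[-/-] libraries, 0.307, 0.749 and 0.952 TPM in wild type and 0.141, 0.27 and 0.266 TPM in elav>Chd1. COX7CL stood at 7.57, 6.03 and 8.14 TPM in the Chd1[-/-] libraries, 1.34, 0.646 and 0.786 TPM in wild type and 0.406, 0.795 and 0.998 TPM in elav>Chd1. Both were low outside the Chd1[-/-] group, and all wild-type and elav>Chd1 values of COX6CL were under the 1 TPM of the filter, which it passed only through Chd1[-/-] (log2 fold change -0.65, SE 0.21, limma adjusted p = 0.014 for elav>Chd1 against wild type). COX7CL was not called (limma adjusted p = 0.400). Dnaaf6 (CG5048) is a dynein axonemal assembly factor, a class of proteins that prepares the motors of cilia and sperm tails. Its levels were 5.35, 4.85 and 5.88 TPM in the Chd1[-/-] libraries, 0.666, 0.274 and 0.496 TPM in wild type and 0.356, 0.202 and 0.252 TPM in elav>Chd1, and its groups other than Chd1[-/-] overlapped.

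The clock-linked gene dyw (CG2650, daywake), which overlaps the period gene on the opposite strand, stood at 26.1, 26.1 and 27.9 TPM in the Chd1[-/-] libraries, 2.70, 1.79 and 1.99 TPM in wild type and 1.38, 0.97 and 1.30 TPM in elav>Chd1. It was high in the 3 Chd1[-/-] libraries and lower in elav>Chd1 than in wild type (log2 fold change -0.62, SE 0.13, limma adjusted p = 0.002). MtnF (CG43222), a metallothionein of the family that binds metal ions, stood at 29.6, 32.5 and 31.2 TPM in the Chd1[-/-] libraries, 5.71, 5.48 and 3.27 TPM in wild type and 4.03, 2.95 and 5.38 TPM in elav>Chd1, and its other groups overlapped. For pkm the levels were 79.2, 79.7 and 79.3 TPM in the Chd1[-/-] libraries, 13.3, 13.4 and 11.9726 TPM in wild type and 15.9, 17.3 and 15.3 TPM in elav>Chd1. For salto (CG13164) they were 6.35, 6.17 and 6.54 TPM in the Chd1[-/-] libraries, 0.646, 0.737 and 0.457 TPM in wild type and 0.285, 0.229 and 0.131 TPM in elav>Chd1. Bfc (CG9129) stood at 8.17, 8.48 and 8.25 TPM in the Chd1[-/-] libraries, 1.11, 0.981 and 0.84 TPM in wild type and 0.244, 0.291 and 0.288 TPM in elav>Chd1. In these last genes the groups did not overlap, and elav>Chd1 was the middle group for pkm but the lowest for salto and Bfc.

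In the comparison of elav>Chd1 with wild type the criterion does not set the order, since it bounds both groups from above in the same way. It is not independent of the criterion, because genes within 4-fold of the Chd1[-/-] mean in either group are left out. CG13067 was left out for its elav>Chd1 mean (12.9 TPM, beside 4.76 in wild type and 40.7 in Chd1[-/-]). CG31872 was left out for its wild-type mean (1.36 TPM, beside 0.342 in elav>Chd1 and 5.41 in Chd1[-/-]). Values were log2(TPM + 0.5), fitted with limma and adjusted by Benjamini-Hochberg over 11094 genes. All 168 genes passed the filter on low values (at least 1 TPM in 3 libraries), but only 80 would have passed it without the Chd1[-/-] libraries. Of the 168, 100 were lower in elav>Chd1 (59.5%, against 47.3% of all genes tested), 15 were higher (8.93%, against 30.6%) and 53 were not called. The median log2 fold change of the 168 was -0.62, equal to 2 decimals without the 5 genes listed at 0 in elav>Chd1, beside -0.15 for all genes. A fall of at least 1 on the log2 scale was called for 43 of the 168 genes (25.6%), against 1.25% of all genes, and a rise of at least 1 for 6 (3.57%), against 7.19%. The lowest wild-type library lay above the highest elav>Chd1 library for 91 of the 168 genes, or 54.2%, against 47.6% of all genes. The reverse held for 15, or 8.93%, against 30.7%. These shares were not compared by a test. The criterion removes genes with large rises in elav>Chd1 as well as genes high in wild type. The distance of these shares, and of those given next, from all genes can therefore come partly from the criterion. How far it does was not tested. The other 88 genes entered the fit only through the group in which they were picked as high. With the filter applied to the other 6 libraries alone, a choice made after seeing the data, 80 of the 168 genes were among 9715 tested. Of these 80, 47 were lower (58.8%, against 51.0% of the genes then tested) and 14 higher (17.5%, against 31.6%). A fall of at least 1 was called for 33 of the 80 (41.2%, against 1.09%) and a rise of at least 1 for 5 (6.25%, against 7.99%). Their median log2 fold change was -0.70, beside -0.15 for all genes then tested. Among genes whose wild-type and elav>Chd1 levels are set side by side here, COX6CL, salto, Bfc, CG31862, CG14752, CG11635, CG18449, CG2291, CG12126, CG30376, CG32148, CG14658 and CG31008 passed only through the Chd1[-/-] libraries. So did COX7CL, Dnaaf6, CG5172, CG13043, CG13245 and CG44388. The test results of all these genes, called or not, carry that limit. The fold changes understate those of low genes.

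Among the genes lower in elav>Chd1, CG31226 had the largest fall of those above 0 in both groups. It stood at 55.8, 53.9 and 58.4 TPM in the Chd1[-/-] libraries, 4.82, 5.67 and 5.20 TPM in wild type and 1.16, 1.12 and 0.673 TPM in elav>Chd1 (log2 fold change -1.96, SE 0.13, limma adjusted p = 5.7e-07). The 3 genotypes were fully separated, in the order Chd1[-/-], wild type, elav>Chd1. CG15219 followed the same order at 29.5, 28.4 and 30.9 TPM in the Chd1[-/-] libraries, 3.60, 4.06 and 3.59 TPM in wild type and 0.629, 0.62 and 0.867 TPM in elav>Chd1 (log2 fold change -1.82, SE 0.10, limma adjusted p = 1.4e-07). CG3124 did so as well, at 27.4, 27.5 and 27.3 TPM in the Chd1[-/-] libraries, 3.19, 2.34 and 3.0004 TPM in wild type and 0.763, 0.177 and 0.669 TPM in elav>Chd1 (log2 fold change -1.73, SE 0.20, limma adjusted p = 3.2e-05). Its Chd1[-/-] libraries were nearly equal, whereas 1 of the elav>Chd1 libraries was well below the other two.

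CG43147 stood at 54.9, 48.7 and 56.9951 TPM in the Chd1[-/-] libraries, 8.11, 10.7 and 12.8 TPM in wild type and 1.99, 3.41 and 3.55 TPM in elav>Chd1 (log2 fold change -1.67, SE 0.19, limma adjusted p = 2.9e-05). CG30430 stood at 41.1, 45.5 and 36.1 TPM in the Chd1[-/-] libraries, 3.58, 2.59 and 3.20 TPM in wild type and 1.07, 1.05 and 0.25 TPM in elav>Chd1, CG31468 at 28.2, 28.4 and 26.8 TPM in the Chd1[-/-] libraries, 2.94, 3.56 and 2.77 TPM in wild type and 0.836, 0.327 and 1.30 TPM in elav>Chd1. CG31740 and CG31870 had elav>Chd1 values of 0.615, 1.21 and 1.61 TPM and 0.55, 0.138 and 0.689 TPM, beside wild-type values of 4.60, 4.16 and 3.38 TPM and 1.81, 2.98 and 1.63 TPM. The fitted falls of these last genes were -1.56, -1.51, -1.51 and -1.47 on the log2 scale, and none of their elav>Chd1 libraries reached a wild-type one. The coding lengths of these 8 genes run from 44 codons (CG43147) to 283 codons (CG3124).

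For 5 genes every elav>Chd1 library was listed at 0, so that no fold change is given. CG43816 was the most abundant of them, with 23.3, 23.4 and 18.3 TPM in Chd1[-/-] and 1.54, 1.67 and 2.20 TPM in wild type. It overlaps CG13245 on the same strand, which stood at 27.7, 20.6 and 25.7 TPM in Chd1[-/-] and 0.98, 0.545 and 0.545 TPM in elav>Chd1, so reads could have been divided between the pair and both levels are uncertain. CG32148 stood at 6.48, 6.65 and 7.77 TPM in Chd1[-/-] and 0.813, 0.954 and 1.02 TPM in wild type, and CG14658 at 7.27, 6.69 and 6.64 and 0.656, 0.378 and 0.449 TPM. CG31008 and CG44388 were at 0 in 1 and 2 of the wild-type libraries as well, with Chd1[-/-] values of 7.18, 5.51 and 5.08 TPM and 10.9, 5.19 and 7.31 TPM. A gene listed at 0 in these files can also be one whose estimate went to another gene.

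The 15 genes higher in elav>Chd1 formed a minority with the opposite order. CG11458 moved most. It stood at 145.6, 127.0 and 154.2 TPM in the Chd1[-/-] libraries, 0.632, 1.81 and 0.675 TPM in wild type and 9.82, 8.40 and 6.26 TPM in elav>Chd1 (log2 fold change 2.55, SE 0.25, limma adjusted p = 1.0e-05). The elav>Chd1 libraries lay between the others without overlap, closer to wild type on the TPM scale. CG12998 stood at 132.2, 126.0 and 119.5 TPM in the Chd1[-/-] libraries, 4.83, 4.98 and 5.76 TPM in wild type and 28.2, 29.2 and 25.8 TPM in elav>Chd1 (log2 fold change 2.31, SE 0.07, limma adjusted p = 3.1e-09), again with no overlap. CG42807 was at 187.1, 178.9 and 184.3 TPM in the Chd1[-/-] libraries, 19.1, 18.1 and 18.7 TPM in wild type and 41.4, 40.4 and 42.3 TPM in elav>Chd1 (log2 fold change 1.13, SE 0.04, limma adjusted p = 5.3e-09). These genes are more abundant than most of the 168, and the 15 had a median Chd1[-/-] mean of 46.5 TPM, against 10.7 TPM for the 100 that were lower.

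At low level, CG31862 was listed at 0 in 2 wild-type libraries and at 0.0883 TPM in the other, beside 0.629, 1.15 and 1.96 TPM in elav>Chd1 and 6.20, 6.41 and 4.67 TPM in Chd1[-/-]. CG32302 stood at 8.55, 9.22 and 10.6 TPM in the Chd1[-/-] libraries, 0.445, 0.109 and 0.58 TPM in wild type and 1.45, 1.37 and 1.68 TPM in elav>Chd1. CG14499 rose by 1.06 and CG15617 by 1.00 on the log2 scale. CG34227 was the weakest of the 8 largest rises (log2 fold change 0.82, SE 0.27, limma adjusted p = 0.017), with wild-type values of 1.16, 2.75 and 2.90 TPM and elav>Chd1 values of 3.83, 5.48 and 3.39 TPM. Its call was lost without elav>Chd1 library 2 (log2 fold change 0.64, limma adjusted p = 0.0695) and without the filter on low values (limma adjusted p = 0.0705). The remaining 7 genes of the 15 were CG9686, CG31775, CG32284, CG42662, CG18467, CG14752 and pkm, with log2 fold changes from 0.32 (pkm) to 0.80 (CG14752).

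Set against the Chd1[-/-] mean, most of the 168 genes kept less in elav>Chd1 than in wild type. The wild-type mean was 9.09% of the Chd1[-/-] mean in the median gene, with quartiles of 7.37% and 11.5%. The elav>Chd1 mean was 3.51%, with quartiles of 2.30% and 7.81%. Both cannot exceed 25% by the criterion. In the 100 genes lower in elav>Chd1 the medians were 9.09% and 2.58%, and in the 15 higher genes 7.90% and 19.3%. The order of wild type and elav>Chd1 in these called classes follows from the call itself. Both classes include genes that passed the filter only through the Chd1[-/-] libraries. In the 53 genes without a call they were 9.15% and 7.06%. The elav>Chd1 mean was below the wild-type mean for 137 genes and above it for 31. The same count was not made over all genes. Their median log2 fold change was also negative, at -0.15, with 47.3% called lower in elav>Chd1 and 30.6% higher by limma.

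Marker genes of several tissues were measured beside these, as lists chosen with earlier results known. Of the male germline list, 25 of 29 genes were measured, with a summed level of 521.0 to 549.0 TPM in Chd1[-/-], 167.0 to 182.0 TPM in wild type and 104.5 to 111.9 TPM in elav>Chd1, where twe, a phosphatase gene also used in the ovary, holds the larger part outside Chd1[-/-]. Of the 18 tested, 16 were lower and 1 higher in elav>Chd1 than in wild type by limma, and 1 was not called (median log2 fold change -1.06). Their medians were 9.3% and 2.6% of the Chd1[-/-] mean in wild type and elav>Chd1, counting the 16 genes that reached 5 TPM in Chd1[-/-]. The spermatid gene Mst87F, for example, stood at 85.5, 69.1 and 71.8 TPM in the Chd1[-/-] libraries, 6.05, 5.80 and 8.11 TPM in wild type and 2.33, 2.39 and 2.03 TPM in elav>Chd1, and the sperm chromatin gene ProtB at 9.44, 11.1 and 13.3 TPM in the Chd1[-/-] libraries, 1.56, 0.815 and 1.73 TPM in wild type and 0.084, 0 and 0.248 TPM in elav>Chd1. ProtB was chosen after its values were seen. The 1 gene called higher, bol, stood at 32.6% and 53.1% of its Chd1[-/-] mean in wild type and elav>Chd1. The meiotic-arrest genes of the list (can, sa, mia, aly, nht, topi and comr), which act in spermatocytes, were low in all groups. Each had its highest group mean in Chd1[-/-], but for mia and nht the Chd1[-/-] libraries overlapped the others. The order of wild type and elav>Chd1 differed between these genes. Means in Chd1[-/-], wild type and elav>Chd1 were 0.132, 0.0202 and 0.0242 TPM for can and 0.194, 0.0534 and 0.0526 TPM for nht. The Chd1[-/-] means of comr and aly were 0.0528 and 0.114 TPM. comr was listed at 0 in wild type and aly in elav>Chd1, sa stood at 0.534, 0.461 and 0.844 TPM in the Chd1[-/-] libraries, 0, 0 and 0.111 TPM in wild type and 0.06, 0.0594 and 0 TPM in elav>Chd1, mia at 1.11, 1.26 and 1.75 TPM in the Chd1[-/-] libraries, 1.26, 1.40 and 1.05 TPM in wild type and 0.91, 0.954 and 1.25 TPM in elav>Chd1 and topi at 1.10, 1.24 and 0.886 TPM in the Chd1[-/-] libraries, 0.763, 0.576 and 0.634 TPM in wild type and 0.557, 0.794 and 0.57 TPM in elav>Chd1. The accessory gland list, with 24 of 25 genes measured, had a sum of 616.7 to 701.1 TPM in Chd1[-/-], 127.1 to 134.6 TPM in wild type and 51.9585 to 56.9 TPM in elav>Chd1. Of 22 tested, 18 were lower and 2 higher in elav>Chd1 than in wild type. Over the 17 genes that reached 5 TPM in Chd1[-/-], the medians were 20.4% and 5.5%. roX1 was level between these groups, at 7.20% and 7.08% of its Chd1[-/-] mean. The part of male tissue in the levels of the 168 genes was not tested.

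The other lists were as follows, with medians taken over genes that reached 5 TPM in Chd1[-/-]. In wild type and elav>Chd1, in this order, the medians were 19.0% and 38.0% of the Chd1[-/-] mean for neurons, 21.4% and 41.8% for photoreceptors and 18.5% and 70.1% for muscle. They were 50.7% and 83.1% for glia, 44.6% and 77.5% for fat body, 60.2% and 97.7% for midgut and 106.4% and 118.3% for ovary and eggshell. Antimicrobial peptides stood at 23.0% and 18.6%, with elav>Chd1 less far below wild type than in the male lists. Their median log2 fold change was -0.27, beside -0.15 for all genes tested. Their summed level in elav>Chd1, 4629.3 to 4676.1 TPM, lay inside the wild-type range of 4318.2 to 4919.1 TPM. Counting genes that reached 5 TPM in Chd1[-/-], both other means were at most 25% of the Chd1[-/-] mean for 14 of 16 male germline, 12 of 17 accessory gland, 17 of 35 antimicrobial peptide and 6 of 15 fat body genes. The same held for 2 of 17 photoreceptor, 1 of 19 muscle, 1 of 28 midgut and 0 of 13 neuronal, 7 glial and 25 ovary and eggshell genes. The fat body genes Fbp1 (4.23% and 1.24%) and Lsp1alpha (4.03% and 1.60%) are examples chosen after their values were seen. By limma, elav>Chd1 was higher than wild type for 12 of 14 neuronal, 15 of 17 photoreceptor, 19 of 19 muscle, 9 of 11 glial, 24 of 30 midgut, 13 of 26 ovary and 5 of 15 fat body genes. It was lower for 2, 1, 0, 2, 1, 8 and 7 of them in the same order. Of 37 antimicrobial peptide genes 6 were higher and 19 lower. Beside these counts and those of the male lists, 30.6% of all genes tested were higher and 47.3% lower. All of these lists had no member at 0 in all libraries of a group apart from 2 antimicrobial peptide genes. Their part in those levels was not tested either.

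**Figure D3:**
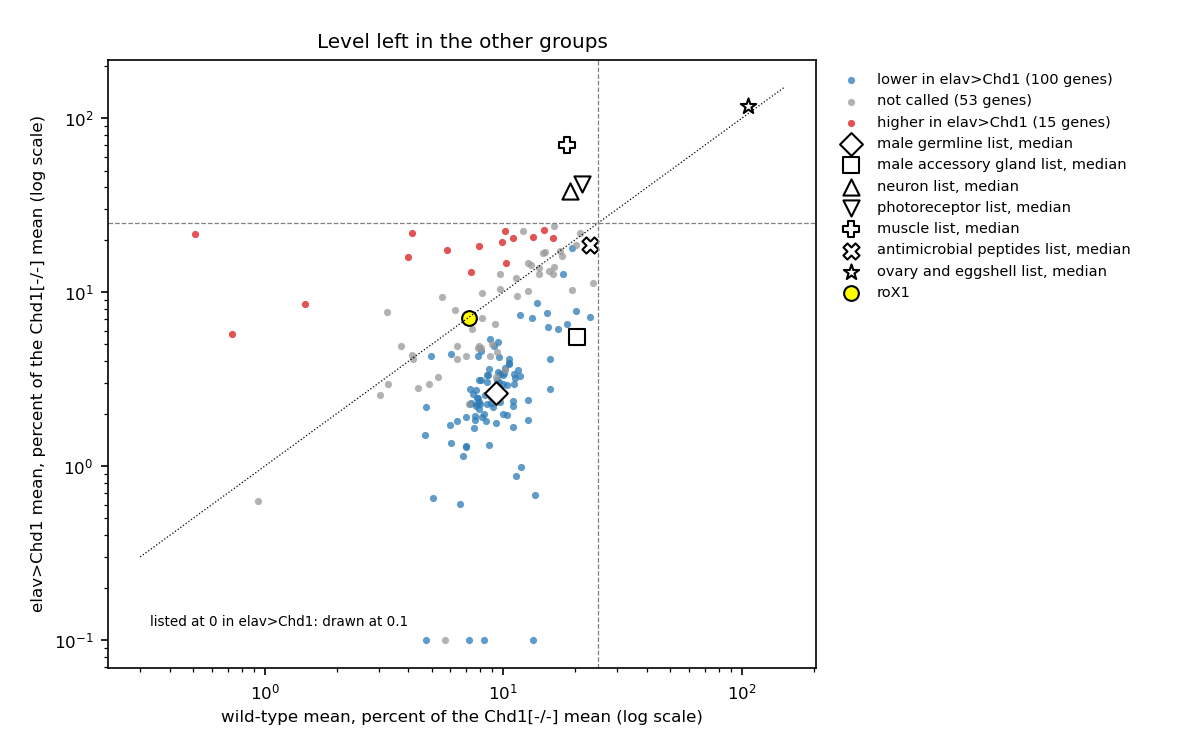
Each point is 1 of the 168 genes, placed by its wild-type mean (x) and elav>Chd1 mean (y) as a percent of its Chd1[-/-] mean, both on log axes, and coloured by the limma call of elav>Chd1 against wild type; white symbols are the medians of marker lists over their genes with at least 5 TPM in Chd1[-/-], the yellow circle is roX1, the dotted line marks equal levels and the dashed lines the 25% bound of the criterion. The 5 genes listed at 0 in elav>Chd1 are drawn at 0.1%. The blue points lie below the dotted line and the red points above it, which follows from the calls that colour them. Also below the line are the medians of the male germline (9.3% and 2.6%), accessory gland (20.4% and 5.5%) and antimicrobial peptide (23.0% and 18.6%) lists.

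The annotation (Ensembl 115, BDGP6.54, dm6 coordinates) was used for features that the criterion did not touch. All 168 genes matched it and all are protein-coding. They are short. The median coding length was 143.5 codons (quartiles 88.8 and 242.8), against 355 codons (218 and 547.2) in the other 2973 CG-named genes with a Chd1[-/-] mean of at least 5 TPM and 319 codons in all CG-named genes. Coding lengths under 100 codons were found in 52 of the 168 (31.0%), against 6.70% and 8.64%. The shortest were CG43172 (22 codons), CG44388 (30) and CG43397 (40), and the longest CG4836 (1224 codons), CG17666 (872) and salto (832). The canonical transcript had no intron in 55 genes (32.7%), against 12.6% and 20.7%. TPM corrects for transcript length, and the correction is least certain for the shortest transcripts.

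There were 41 on 2L, 45 on 2R, 39 on 3L, 31 on 3R and 12 on the X, with none on chromosomes 4 or Y. The X share was 7.14%, beside 17.97% of the other CG-named genes at that level and 16.5% of all CG-named genes. Of the 100 genes lower in elav>Chd1, 7 were on the X, and of the 15 higher ones 3, namely CG9686, CG12998 and pkm. These features are described without a test.

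**Figure D4:**
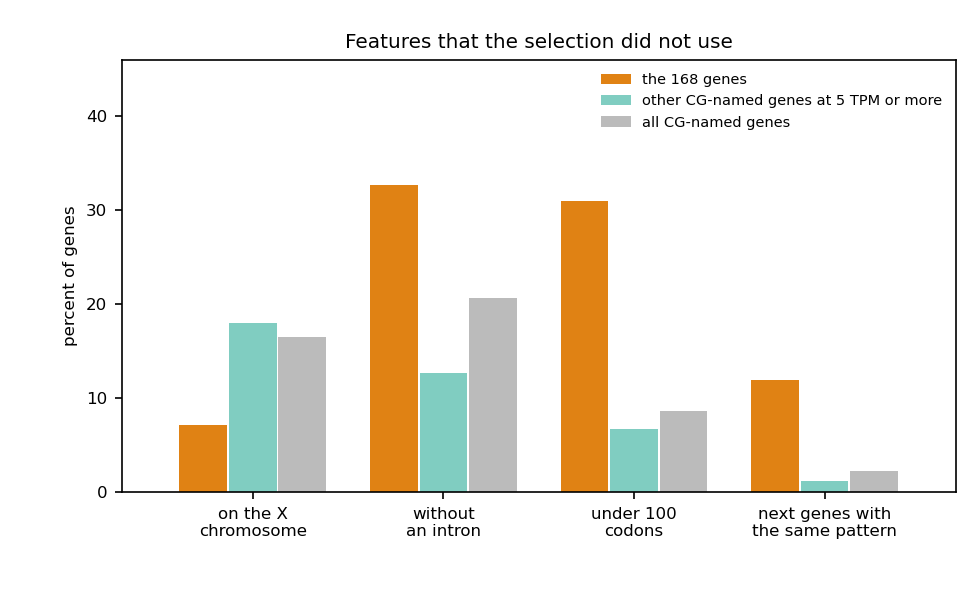
Bars give the percent of genes, from 0, on the X chromosome, without an intron, with a coding length under 100 codons, and the percent of next listed genes on either side that themselves meet the level criterion under any symbol. The 168 genes (orange) stand at 7.14%, 32.7%, 31.0% and 11.9%, beside 17.97%, 12.6%, 6.70% and 1.14% in the other CG-named genes with at least 5 TPM in Chd1[-/-] (green) and 16.5%, 20.7%, 8.64% and 2.18% in all CG-named genes (grey).

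Of the 336 next listed genes on either side of the 168, 40 (11.9%) met the same level criterion under any symbol, and 32 of these were among the 168. The share was 1.14% around the other CG-named genes at that level and 2.01% around all genes. In all, 338 genes of any symbol met the criterion. Starts within 20 kb of one another joined 46 of the 168 genes into 19 groups.

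The largest group by number holds 5 genes, CG13071, CG13065, CG4962, CG13044 and CG13043, on chromosome 3L from 16262740 to 16305870. Their Chd1[-/-] means were 7.83, 10.4, 68.7, 13.2 and 20.4 TPM. Of the 18 other listed genes in it, 1 reached 5 TPM in Chd1[-/-], namely CG13067 at 43.3, 35.8 and 43.1 TPM in the Chd1[-/-] libraries, 5.60, 3.70 and 4.99 TPM in wild type and 14.1, 11.8 and 12.9 TPM in elav>Chd1, which missed the 4-fold bound. The others had a Chd1[-/-] mean of at most 3.09 TPM, with a median over all 18 of 0.289 TPM. Among these low genes, the Chd1[-/-] mean was 3.34 to 9.13 times the higher of the other means for CG13051, CG13069, CG13068, CG34248, CG13046 and CG43249. In CG13049, CG13048, CG13047 and CG13064 the elav>Chd1 mean was instead the highest. These genes were named after their values were seen.

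A second group on chromosome arm 2R holds CG11635, CG18449, CG2127 and CG8701 within 13.6 kb. CG8701 was the highest, at 38.8, 38.9687 and 35.9887 TPM in the Chd1[-/-] libraries, 4.02, 3.21 and 3.13 TPM in wild type and 1.15, 0.774 and 0.875 TPM in elav>Chd1. CG2127 stood at 15.3, 15.2 and 14.2 TPM in the Chd1[-/-] libraries, 1.37, 1.31 and 1.39 TPM in wild type and 0.351, 0.377 and 0.253 TPM in elav>Chd1, and CG18449 and CG11635 had Chd1[-/-] means of 12.2 and 6.64 TPM. CG8701 and CG2127, which pass the filter without Chd1[-/-], were lower in elav>Chd1 than in wild type by limma. Between them lie hubl, spaw, whip, swif and boly. Of these spaw, whip, swif and boly belong to the comet genes, a class of fly genes transcribed late, in spermatids. All 5 were named here after their values were seen. whip stood at 5.72, 6.88 and 6.22 TPM in the Chd1[-/-] libraries, 0.581, 0.142 and 0.128 TPM in wild type and 0, 0.202 and 0.134 TPM in elav>Chd1, and boly at 5.79, 5.43 and 5.42 TPM in the Chd1[-/-] libraries, 0.403, 0.296 and 0.263 TPM in wild type and 0.139, 0.229 and 0.0916 TPM in elav>Chd1. The Chd1[-/-] means of spaw, swif and hubl were 4.58, 4.40 and 0.82 TPM, at least 12.3 times the higher of their other means.

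On chromosome 2L, CG13245, CG43816 and CG31820 lie between 16004325 and 16006279 with no other listed gene wholly inside. CG13245 also overlaps beat-Ic on the same strand. CG31820 stood at 46.8, 45.8 and 44.9 TPM in the Chd1[-/-] libraries, 4.16, 3.25 and 3.15 TPM in wild type and 1.09, 1.77 and 0.887 TPM in elav>Chd1. It lies on the opposite strand to the other two. On 2R, CG2291, CG12126 and CG30376 lie within 3.82 kb with nothing else listed between them, at Chd1[-/-] means of 5.49, 6.63 and 11.3 TPM. Their wild-type means were 0.382, 0.311 and 1.24 TPM and their elav>Chd1 means 0.0703, 0.1 and 0.188 TPM. CG43172, CG46298 and CG43397, also on 2R and within 4.30 kb, had means of 6.40, 6.13 and 10.1 TPM. The 5 other listed genes inside that interval were at 3.63 TPM or below.

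Some groups of 2, chosen after their values were seen, showed both orders of the other genotypes. CG42481 and CG43147 on 3L, 1.36 kb from end to end, were both lower in elav>Chd1 than in wild type. CG42481 stood at 105.0, 80.8 and 77.7 TPM in the Chd1[-/-] libraries, 11.4, 16.6 and 24.9 TPM in wild type and 6.41, 6.95 and 7.16 TPM in elav>Chd1. CG17376 and CG17377 on 2L were also both lower, with 84.2, 83.3 and 84.3 TPM in the Chd1[-/-] libraries, 8.20, 8.36 and 7.20 TPM in wild type and 3.03, 2.15 and 2.72 TPM in elav>Chd1 for the first. CG12998 and CG5172 on the X lie within 3.99 kb and differed, since CG12998 reached 28.2, 29.2 and 25.8 TPM in elav>Chd1 while CG5172 stayed at 0.163, 0.395 and 0.08 TPM. CG5172 passed the filter only through the Chd1[-/-] libraries. CG14752 and CG8736, within 4.50 kb on 2R, differed too, the first being higher in elav>Chd1 than in wild type (log2 fold change 0.80, limma adjusted p = 0.014) and the second lower (log2 fold change -0.22, limma adjusted p = 0.010). CG14752, like CG5172, passed the filter only through the Chd1[-/-] libraries, and its test result carries that limit. The fall of CG8736 is close to the median of all genes.

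Annotated extents of 69 of the 168 genes overlap another listed gene, 22 of them on the same strand. Overlaps were not counted for other genes, so whether this share is unusual is unknown. As examples chosen after their values were seen, CG31538 overlaps mtd (168.6 TPM in Chd1[-/-]), CG4375 overlaps IA-2 (80.6 TPM) and CG7768 overlaps nuf (58.3 TPM) on the same strand. Reads from such pairs could have been divided unevenly, and the sources do not say whether the libraries keep strand. The levels of these genes are uncertain to that extent.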

How the data were processed

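RNA of 9 libraries, 3 for each genotype, was analysed from the deposited files, which hold 1 TPM value per gene. The authors made the TPM; per the submitters' processing notes, Salmon and DESeq2 were used, with neither a version nor a role stated. No build of the genome is named. TPM of a library sum to 999685 to 999850. From the authors' tables, which per the file headers hold a log2 fold change with its error, a test score, raw and adjusted p-values, and a mean normalised signal per gene, only the fold changes of the 168 genes were used.

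Genes were chosen, and lists fixed, with earlier results of these data known. Values were log2(TPM + 0.5). Limma-trend fitted all 9 libraries with 1 mean per genotype over 11094 genes, those reaching 1 TPM in 3 or more libraries, with Benjamini-Hochberg adjustment and a threshold of 0.05. Symbols were matched to Ensembl 115 (BDGP6.54) by the authors' FlyBase ID (5572), the symbol (10603) or 1 synonym (599), and 63 were unmatched. Named genes are the 12 highest, the 10 largest ratios, the 8 largest called changes in each direction between elav>Chd1 and wild type (leaving out genes at 0 throughout a group), those nearest each bound, the 5 largest neighbour groups, the longest and shortest coding lengths, and those with a current name. Of the marker lists only examples are named. Protein composition, likeness between proteins and promoter motifs, which were planned, were not analysed here. Alternatives changed the criterion's bounds, pseudocount, filter, scaling, libraries, replicate block and fold threshold. Tools were R 4.3.3, limma 3.58.1, Python 3.11.15, pandas 2.3.3 and matplotlib 3.10.9.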

Additional observations from a re-analysis of the deposited data

How the results depend on the processing

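The number of genes meeting the criterion moved with its level bound, from 168 to 450 at 2 TPM and 90 at 10 TPM. It was 207 at a fold bound of 3 and 119 at 8, 169 with medians, 171 with median-ratio scaling and 168 to 175 with any 1 library left out. For elav>Chd1 against wild type, 115 of the 168 genes were called, 100 lower and 15 higher. With a log2 fold change of 1 or more in size also required, 49 were left, of which 43 were lower and 6 higher. Testing only genes with at least 10 TPM in 3 libraries kept 81 of the 168 in the fit and called 64, of which 51 were lower. Applying the filter to libraries other than Chd1[-/-], added after seeing the data, kept 80 and called 61, of which 47 were lower and 14 higher. Leaving out 1 library gave 109 to 119 calls, 92 to 102 lower and 13 to 17 higher. Same-numbered libraries did not deviate together (correlations of -0.155 to 0.108), so the numbers were not taken as pairs; with the replicate block 105 were lower and 15 higher, 120 in all, and over all genes 9821 and 7421 were called in Chd1[-/-] against wild type and against elav>Chd1. Over all genes these comparisons called 9859 and 7583, with 9588 to 9993 and 6794 to 8299 when 1 library was left out. With that size required they called 3231 and 1921, and the second called 4994 with the 10 TPM filter. Among the 16 genes named for their change between elav>Chd1 and wild type, each alternative kept the direction, and the call was lost in 2 values, both for CG34227, and kept in 266. CG31862 could not be fitted with the added filter, nor could CG31862, CG32302 and CG14499 with the 10 TPM filter. TPM files without counts leave counting error unknown, which bears most on genes under 1 TPM, 85 of the 168 in wild type and 117 in elav>Chd1.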
